A study of Arabidopsis thaliana with 12 samples.

Results

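GEM (GL2-EXPRESSION MODULATOR) and its relatives are plant proteins with a GRAM domain. They were followed here at 8 loci chosen by locus identifier: GEM itself (AT2G22475), FIP1 (AT1G28200), and 6 genes that the array annotation describes as GRAM domain, ABA-responsive protein-related (AT4G01600, AT5G08350, AT5G13200, AT5G23350, AT5G23360 and AT5G23370). These 8 loci were read by 10 of the 37118 transcript features on the array, out of 32627 loci. GEM and AT4G01600 had a pair of features each, every other member had 1, and each feature rested on 3 or 4 probes. No member was left out and no filter on dim features was applied.

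The GRAM domain is a lipid-binding module of proteins that work at membranes. GEM is known from Arabidopsis roots, where it binds the replication factor CDT1 and the WD-repeat protein TTG1 and holds down the expression of GL2 and CPC, genes that set whether an epidermal cell becomes a hair cell. FIP1 was named as a partner of the formin AFH1, which builds actin filaments. Abscisic acid (ABA) is the plant hormone of drought, seed maturation and dormancy.

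RNA came from whole Arabidopsis thaliana seedlings, all of cultivar Col-0 and 10 days old. The 3 genotypes were wild type, a line named gem1 that carries a T-DNA insertion, and a GEM overexpressor (GEMoe) driven by 35S, a viral promoter active in most plant cells. Each genotype was taken untreated and after 2 hours in 100 μM ABA, on 12 one-colour arrays, 2 biological replicates for each of 6 groups. The labels name no mock treatment, so the time and handling of the treatment cannot be told apart from ABA, and neither the site of the insertion nor the number of independent overexpressor lines is given in the sources used here.

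All values below are the authors' log2 expression values per transcript feature. Array medians lay between 12.16 and 12.22, the values ran from 6.99 to 15.95, and 11.4% to 11.8% of the features on an array were over 15. A level of one feature cannot be set against that of another. Of 17 tissue markers, the leaf genes RBCS1A, CAB1 and RCA and the root gene PYK10 stayed between 15.78 and 15.93 on all arrays. Of the 4 seed markers, CRU3 ranged from 8.85 to 15.11 between arrays, CRA1 from 10.39 to 15.56 and OLEO1 from 9.26 to 13.62. SESA1 stayed between 7.79 and 8.80. In whole seedlings, fewer cells of a type and less RNA per cell cannot be told apart.

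The members lie on chromosomes 1, 2, 4 and 5 (positions as the array annotation gives them, its build not stated in those sources). GEM spans 9541401 to 9545010 on chromosome 2, on the forward strand, and its features 1 and 2 share that span to within 1 base at the end. FIP1 spans 9850147 to 9852366 on chromosome 1, and AT4G01600 spans 693181 to 694340 on chromosome 4. AT5G08350 (2686245 to 2687251) and AT5G13200 (4207004 to 4208289) lie apart on chromosome 5. AT5G23350, AT5G23360 and AT5G23370 are neighbours within 6019 bases of chromosome 5, from 7858253 to 7864271. Tandem relatives can share probe sequence, which was not checked here, so the signal of each of the 3 is uncertain. The span of AT5G23350 also overlaps that of the neighbouring gene AT5G23340 by 67 bases on the opposite strand.

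Across the family, AT5G13200 rose 4.34-fold with ABA, and GEM feature 1 was 2.68-fold higher in the overexpressor than in wild type, a fold that may be understated because its overexpressor values lie near the top of the scale. The other 8 features did not pass the test in any of 13 contrasts by limma, with Benjamini-Hochberg adjustment over all 37118 features and a threshold of 0.05. The call of FIP1 for ABA changed with the setting: its rise of 0.18 on the log2 scale missed the threshold in that fit (adjusted p = 0.0731) and passed when replicate number was a block (0.0328). The call of GEM feature 1 also changed with the setting, and it held in 7 of 9 other settings of the fit. It was lost when only the arrays compared were fitted (limma adjusted p = 0.393) and after a shift to 1 median (0.0646). Fits without single arrays are given below. The plot of the members' values on the 12 arrays shows the patterns of AT5G13200 and GEM feature 1.

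**Figure D1:**
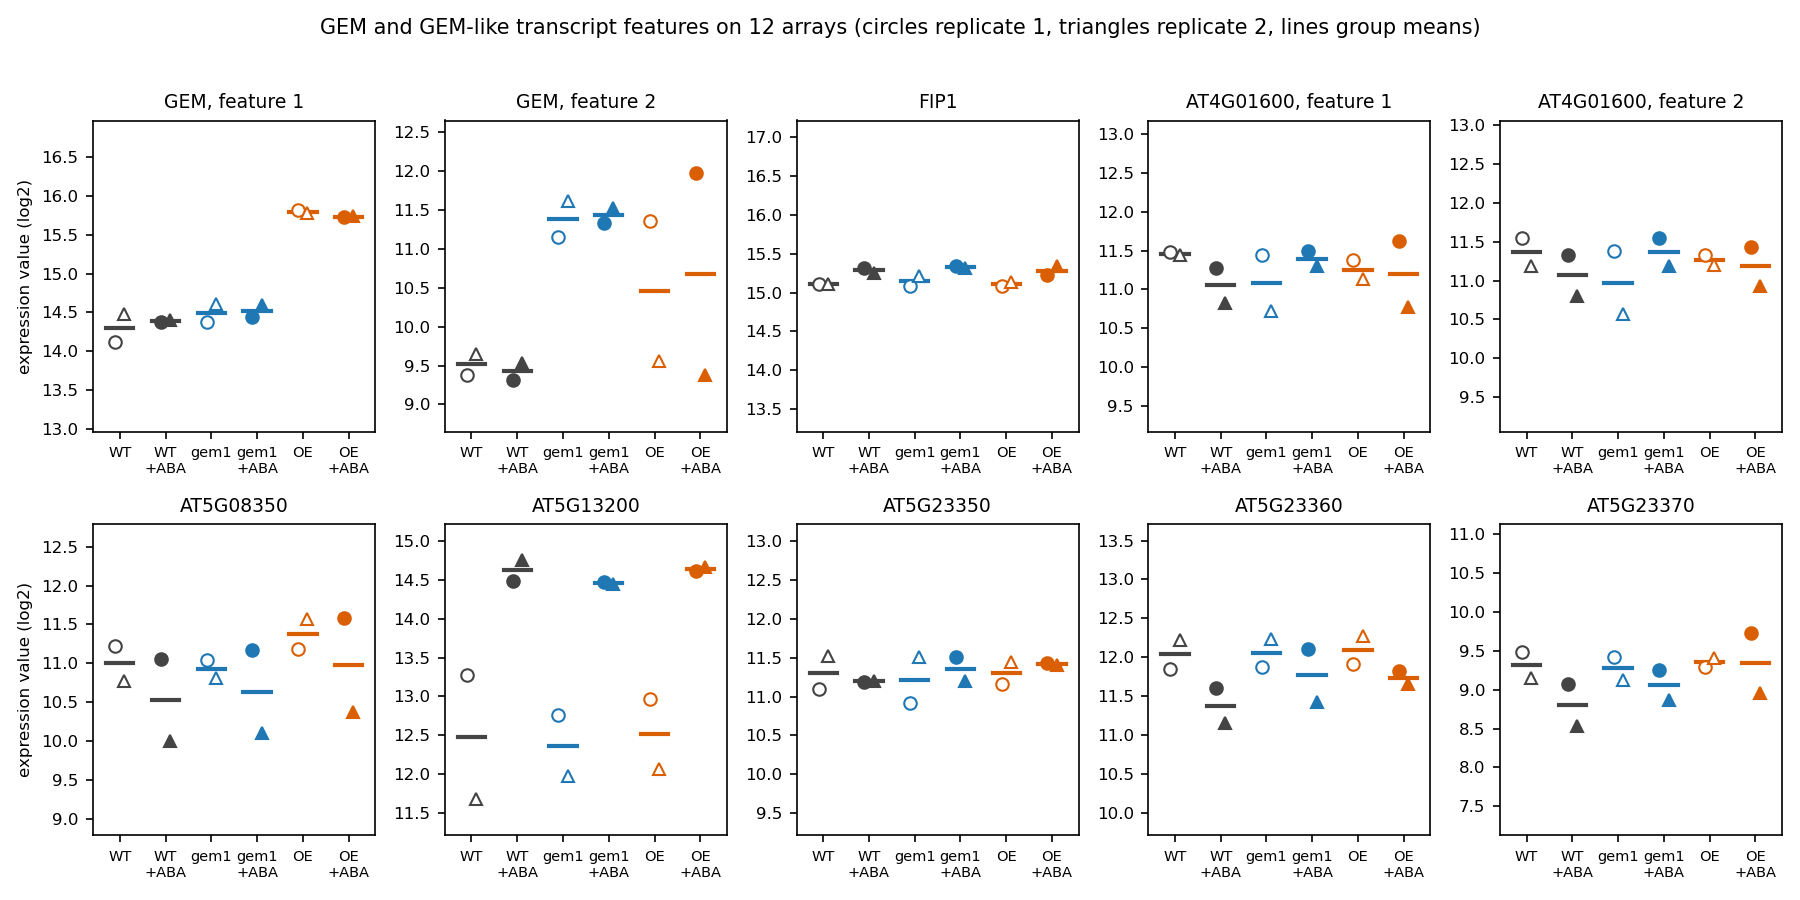
Expression value (log2) of each of the 10 transcript features of GEM and the GEM-like genes on the 12 arrays, in wild type (WT), gem1 and the GEM overexpressor (OE), untreated (open) and with ABA (filled). Circles are replicate 1, triangles replicate 2 and lines group means of 2 arrays; GEM feature 1 lies between 15.73 and 15.81 in the overexpressor and at or under 14.61 elsewhere.

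GEM, the gene altered in the study's lines, was first compared between genotypes, which also checks the labels. Feature 1 read 14.12 and 14.48 in untreated wild type, 14.38 and 14.40 in wild type with ABA, 14.38 and 14.61 in untreated gem1, and 14.44 and 14.59 in gem1 with ABA (replicates 1 and 2). In the overexpressor it read 15.81 and 15.78 untreated, and 15.73 and 15.74 with ABA. All 4 overexpressor arrays stood above all 8 others, and the arrays labelled gem1 were not lower than those of wild type. In order of group means, both overexpressor groups came first, with 15.80 ± 0.02 untreated and 15.73 ± 0.01 with ABA (SD, n = 2). Next came gem1 with ABA (14.52 ± 0.11), gem1 untreated (14.50 ± 0.16), wild type with ABA (14.39 ± 0.02) and wild type untreated (14.30 ± 0.25), and the arrays of each neighbouring pair among these 4 groups overlapped.

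Averaged over both treatments, GEM feature 1 was higher in the overexpressor than in wild type by 1.42 on the log2 scale (SE 0.10, 95% interval 1.19 to 1.65, 4 arrays against 4, limma adjusted p = 0.0273, and 0.00968 when replicate number was added as a block). Of all 37118 features it was the only one past the threshold in that contrast, which is 0.00269% of them, and 219 had an unadjusted p under 0.05. It ranked first by p and second by size of change. The overexpressor values lie close to 15.95, the highest value of any feature. A difference measured so near the top may be smaller than the true one, which was not tested. Within a treatment the difference was 1.50 without ABA and 1.34 with ABA, the smallest p of all features in both, but not past the threshold (limma adjusted p = 0.234 and 0.516). The call did not hold without single arrays: it was lost in 11 of the 12 fits that left out 1 array, all but the one without untreated wild-type replicate 2, both with and without the block, while the difference stayed between 1.33 and 1.51.

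**Figure D2:**
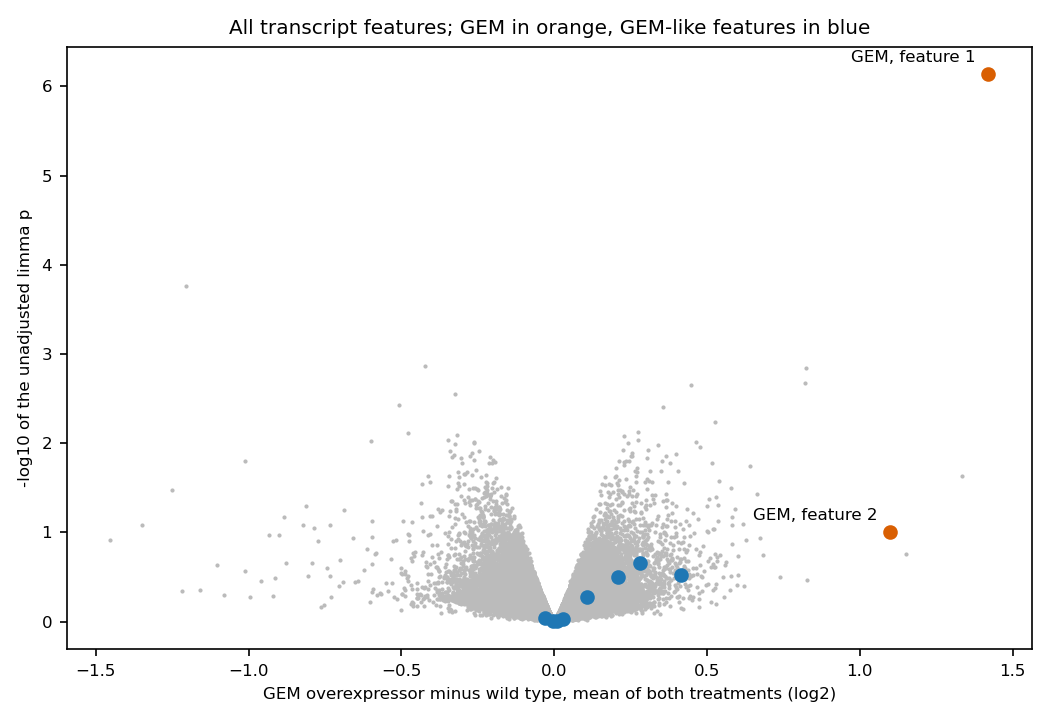
Difference between the GEM overexpressor and wild type, averaged over both treatments (log2, horizontal axis), against −log10 of the unadjusted limma p for every transcript feature. GEM feature 1 stands apart at 1.42, GEM feature 2 lies at 1.10 within the range of p of other features, and the 8 GEM-like features (blue) lie between -0.03 and 0.41.

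GEM feature 2 gave a different pattern. It read 9.38 and 9.65 in untreated wild type and 9.32 and 9.54 with ABA, against 11.16 and 11.62 in untreated gem1 and 11.33 and 11.53 in gem1 with ABA. The overexpressor read 11.36 and 11.98 in replicate 1, untreated and with ABA, and 9.56 and 9.38 in replicate 2. All 4 gem1 arrays were thus above all 4 of wild type, while the overexpressor split by replicate number: replicate 1 lay among or above the gem1 arrays and replicate 2 within the range of wild type. By group means the order was gem1 with ABA (11.43 ± 0.14), gem1 untreated (11.39 ± 0.32), overexpressor with ABA (10.68 ± 1.84), overexpressor untreated (10.46 ± 1.27), wild type untreated (9.52 ± 0.19) and wild type with ABA (9.43 ± 0.15). Each group overlapped the next in that order.

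Averaged over treatments, feature 2 was 1.94 higher on the gem1 arrays than in wild type (SE 0.58, 95% interval 0.58 to 3.30, 4 arrays against 4). This was the largest rise and the second largest change of all features in that contrast, but it was 29th by p and did not pass (limma adjusted p = 1). The fit takes 1 spread per feature over all 6 groups, the divided overexpressor arrays included. It did not pass in a fit of only the gem1 and wild-type arrays either (adjusted p = 0.307). No feature of any gene passed in gem1 against wild type (0% of 37118, limma; 221 had an unadjusted p under 0.05, and 854 with the replicate block, which also called none). The overexpressor differed from wild type in feature 2 by 1.10 (SE 0.58, 95% interval -0.26 to 2.46, adjusted p = 1). That value was 0.45 without the ABA-treated overexpressor replicate 1 and 1.75 without replicate 2. Without the untreated overexpressor arrays it was 0.65 (replicate 1 left out) and 1.55 (replicate 2 left out).

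Set directly against gem1, the overexpressor was higher in feature 1 by 1.26 (SE 0.10, 95% interval 1.03 to 1.49, n = 4 and 4). This missed the threshold (limma adjusted p = 0.0663) and passed with the replicate block (adjusted p = 0.0227), where it was the single feature called (0.00269%). That call held in 2 of the 12 fits with the block that left out 1 array, those without either untreated wild-type array. Its arrays did not overlap, as for 0.523% of all features. Feature 2 differed by -0.84 (SE 0.58, 95% interval -2.20 to 0.52, adjusted p = 1). The replicates opposed each other here: in replicate 1 the overexpressor was above gem1 in both treatments, and in replicate 2 it was below. Without single overexpressor arrays the value was -1.29 and -1.49 when replicate 1 was left out (untreated and ABA), and -0.39 and -0.19 when replicate 2 was left out.

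The other 8 features did not pass the test between genotypes in any contrast, with or without the block. Averaged over treatments, their differences from wild type lay between -0.03 and 0.41 in the overexpressor and between -0.14 and 0.21 in gem1, and none had an unadjusted limma p under 0.05. All 8 had overlapping arrays in both of these contrasts. Of all features, 0.431% and 0.512% had arrays that did not overlap, GEM feature 1 in the overexpressor and GEM feature 2 in gem1 among them. AT5G08350 had the widest difference, 0.41 in the overexpressor (SE 0.37, 95% interval -0.45 to 1.27). For the tandem genes the overexpressor differences were 0.11 (AT5G23350), 0.21 (AT5G23360) and 0.28 (AT5G23370), with standard errors of 0.16, 0.20 and 0.21. Within a treatment, with 2 arrays against 2, some of the 8 did not overlap. Against wild type these were 1 of 8 in the untreated overexpressor (12.9% of all features), 2 with ABA (16.7%), 1 in untreated gem1 (11.7%) and 3 in gem1 with ABA (26.5%). The smallest unadjusted limma p with the block were 0.0226, for AT5G23370 in the overexpressor with ABA, and 0.0338, for AT4G01600 feature 2 in untreated gem1.

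AT5G13200 was the family feature called for ABA in the fit without a block, where 10.8% of all features passed. With the block 2 of 10 were called, AT5G13200 and FIP1, where 22.4% of all features passed. Untreated, AT5G13200 read 13.28 and 11.68 in wild type, 12.76 and 11.97 in gem1, and 12.96 and 12.07 in the overexpressor (replicates 1 and 2). With ABA it read 14.48 and 14.76 in wild type, 14.47 and 14.44 in gem1, and 14.61 and 14.67 in the overexpressor. All 6 ABA-treated arrays were above all 6 untreated ones, from 14.44 up against 13.28 at most. Of all features, 12.1% had treated and untreated arrays that did not overlap. Untreated levels were spread widely, with replicate 1 above replicate 2 in every genotype, while the treated levels were close together.

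Averaged over the 3 genotypes, AT5G13200 rose by 2.12 with ABA (SE 0.30, 95% interval 1.42 to 2.82, n = 6 and 6, limma adjusted p = 0.00433), higher in 6 of 6 pairs of the same genotype and replicate number. It was 251st among the 37118 features by size of rise. In that contrast 10.8% of all features passed the threshold (5.81% higher and 5.01% lower), and 1 of the 10 family features did, a share near that of the array at large. The median change of the 10 features was 0.01, against -0.02 over all features.

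By genotype, AT5G13200 gained 2.14 in wild type, 2.09 in gem1 and 2.12 in the overexpressor (SE 0.52 each, n = 2 and 2). None of these passed in the fit without a block (limma adjusted p = 0.116, 0.122 and 0.114), and all of them passed with the replicate block (adjusted p = 0.0324, 0.0351 and 0.0335). With the block and 1 array left out, the call held in 5 of 12 fits for wild type, 6 for gem1 and 4 for the overexpressor. The share of features called was 1.38%, 1.49% and 1.57% without the block, with no family feature among them, and 5.96%, 5.65% and 5.88% with it. The ABA response of gem1 differed from that of wild type by -0.05 (95% interval -1.76 to 1.66) and that of the overexpressor by -0.02 (95% interval -1.73 to 1.69). Both limma adjusted p were 1, and the intervals are wide against the rise itself, so a difference was not detectable with these arrays. In order of level the 3 treated groups came first (14.64 ± 0.04 in the overexpressor, 14.62 ± 0.19 in wild type, 14.46 ± 0.02 in gem1) and the 3 untreated groups last (12.52 ± 0.63, 12.48 ± 1.13 and 12.37 ± 0.55 in the same order). The overexpressor and wild type overlapped with ABA, gem1 lay just below them, and the untreated groups all overlapped. With ABA, 26.5% of all features did not overlap between gem1 and wild type.

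**Figure D3:**
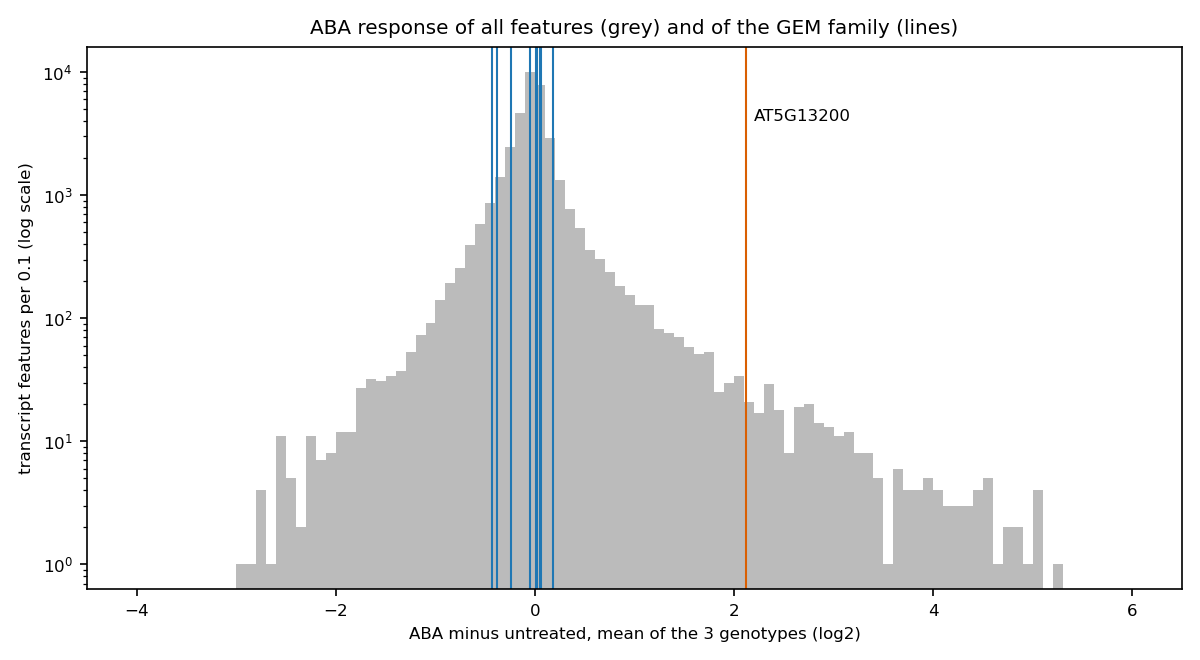
Change with ABA averaged over the 3 genotypes (log2) for all transcript features (grey, counts on a log scale) and for the 10 features of the GEM family (vertical lines). AT5G13200 stands at 2.12 in the upper tail, and the other 9 lie between -0.43 and 0.18, in the bulk of all features.

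FIP1, the formin partner, gave a small and even shift. It lies in the upper part of the scale, where a rise may be understated, which was not tested. Its untreated values lay between 15.08 and 15.21 (median 15.11) and its values with ABA between 15.23 and 15.34 (median 15.32), so that the 2 sets of 6 arrays did not overlap. That was true of 12.1% of all features. The rise was 0.18 (SE 0.05, 95% interval 0.06 to 0.30), seen in 6 of 6 pairs, from 0.10 to 0.26. It missed the threshold (limma adjusted p = 0.0731) and passed with the replicate block (adjusted p = 0.0328), where 22.4% of all features passed (9.67% higher and 12.8% lower). Of the 12 fits with the block that left out 1 array, 2 kept that call, those without untreated gem1 replicate 2 and without ABA-treated overexpressor replicate 1.

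GEM itself did not respond to ABA beyond its spread. Feature 1 differed by 0.02 (SE 0.08, 95% interval -0.17 to 0.20) and feature 2 by 0.06 (SE 0.48, 95% interval -1.05 to 1.17), both with limma adjusted p = 1. Each was higher with ABA in 2 of 6 pairs. In wild type alone (n = 2 and 2) feature 1 changed by 0.09 (95% interval -0.23 to 0.41). There feature 2 changed by -0.09 (95% interval -2.01 to 1.83), an interval too wide to tell a response from none.

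Among the remaining GEM-like genes the averages fell on both sides of 0. AT5G23360 read 11.85 to 12.27 untreated (median 12.07) and 11.15 to 12.11 with ABA (median 11.62), lower in 5 of 6 pairs. Its change of -0.43 (SE 0.16, 95% interval -0.80 to -0.06) had an unadjusted limma p of 0.0272 and an adjusted p of 0.147. AT5G08350 gave -0.39 (SE 0.30, adjusted p = 0.591), lower in 4 of 6 pairs, and AT5G23370 gave -0.25 (SE 0.17, adjusted p = 0.518), lower in 5 of 6. AT5G23350 gave 0.05 (SE 0.13), and features 1 and 2 of AT4G01600 gave -0.05 and 0.01 (SE 0.19 and 0.18), with limma adjusted p between 0.993 and 1. For these 6 features the treated and untreated arrays overlapped.

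**Figure D4:**
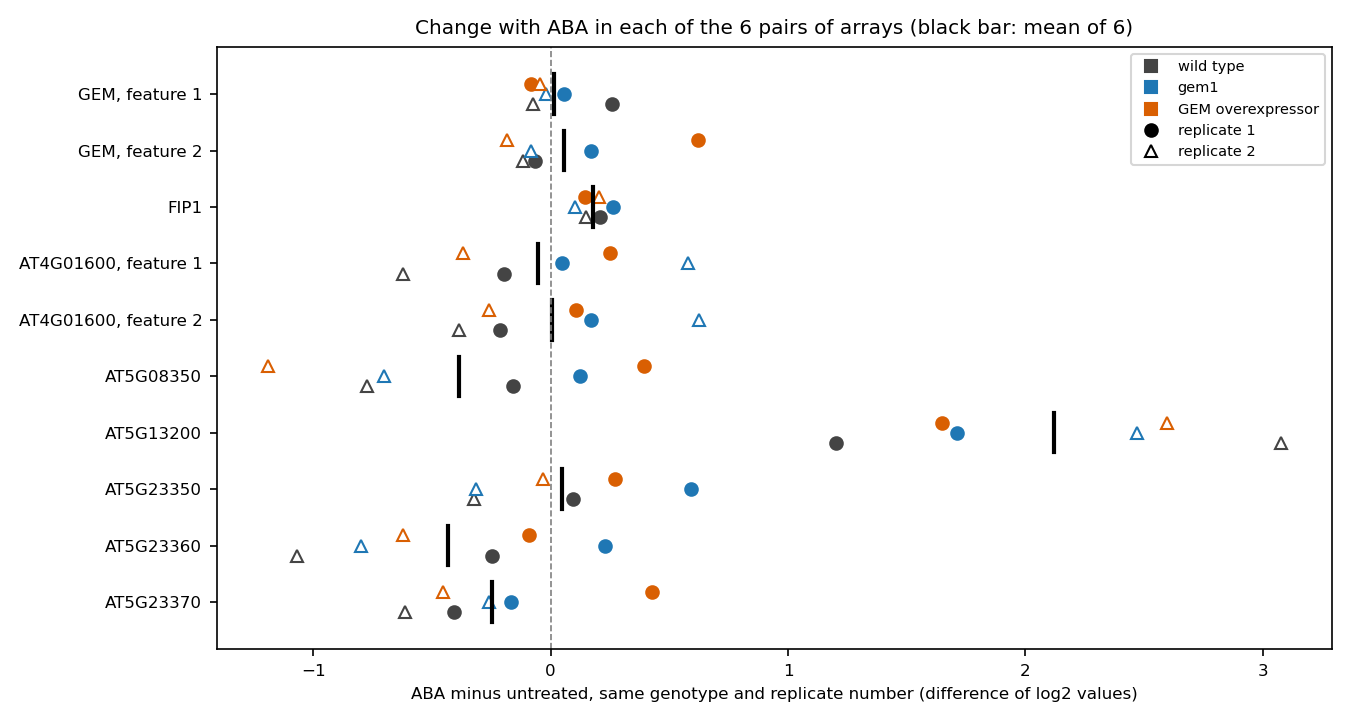
Difference between the ABA-treated and the untreated array of the same genotype and replicate number (log2, horizontal axis) for each feature of the GEM family; circles are replicate 1, open triangles replicate 2, colours genotypes and black bars the mean of 6 pairs. All pairs lie above 0 for AT5G13200 (1.20 to 3.08) and FIP1. In all 3 genotypes replicate 2 lies to the left of replicate 1 for GEM feature 2, AT5G08350, AT5G23350, AT5G23360 and AT5G23370. For AT5G13200 it lies to the right.

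The size of these changes differed between the replicate sets. For AT5G13200 the rise was 1.20, 1.71 and 1.65 in replicate 1 of wild type, gem1 and the overexpressor, and 3.08, 2.47 and 2.60 in replicate 2, or 1.52 ± 0.28 against 2.72 ± 0.32 (SD, n = 3 genotypes each). AT5G08350 changed by 0.12 ± 0.28 in replicate 1 and -0.89 ± 0.26 in replicate 2. AT5G23360 changed by -0.04 ± 0.24 and -0.83 ± 0.22. For AT5G23370 the values were -0.05 ± 0.43 and -0.44 ± 0.18, and for AT5G23350 they were 0.32 ± 0.25 and -0.22 ± 0.16. So the 3 tandem genes and AT5G08350 were all lower with ABA in each pair of replicate 2, while in replicate 1 only AT5G23360 and AT5G23370 were lower in most pairs and AT5G23350 was higher in all. The labels give the replicates as separate biological samples and do not say what else differed between the sets, and this difference was not tested.

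The difference of ABA responses between genotypes was not past the threshold for any of the 10 features (0% of 37118 features in both contrasts, limma, without and with the block). At an unadjusted p under 0.05, 243 features differed in gem1 and 216 in the overexpressor without the block, none of them in the family. The largest family values were those of AT4G01600 in gem1, 0.72 and 0.70 for its features 1 and 2 (SE 0.46 and 0.45). With the block their standard errors were 0.28 and 0.21 and their unadjusted limma p 0.0374 and 0.0128, among 1043 features under 0.05, with adjusted p = 0.987 for both. The pair of features moved together on the 12 arrays, which adds no independent sample, since both read the same locus in the same RNA.

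Genes that work with GEM, and known ABA-responsive genes, put these values in context. Of 15 genes for GEM's partners and for epidermal fate, 2 fell with ABA averaged over genotypes, CDT1A by 0.42 (SE 0.10, limma adjusted p = 0.0367) and WEREWOLF (MYB66), a regulator of the non-hair fate, by 1.26 (SE 0.17, adjusted p = 0.00336), and none rose, where 5.01% of all features were called lower. With the replicate block 7 of 15 fell, where 12.8% of all features were called lower, and the median of the list was -0.31 against -0.02 over all features. TTG1 gave -0.18, GL2 -0.21, CPC -0.57 and the formin gene AFH1 0.09, all short of the threshold, although CPC passed with the block (adjusted p = 0.00213). In neither altered line did any of the 15 pass the test against wild type, where 0.00269% (overexpressor) and 0% (gem1) of all features passed. Their median differences were -0.08 in the overexpressor and -0.01 in gem1.

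Of 13 ABA-induced comparison genes 10 rose past the threshold, where 5.81% of all features were called higher. All 13 were above 0, with a median of 2.34 against -0.02 over all features. The list was picked as ABA-induced, with earlier results of these data known, so its rise was no independent check. HAI3, a phosphatase that restrains ABA signalling, rose by 5.25, the cold and ABA gene KIN1 by 3.99, HAI1 by 3.92 and HAI2 by 3.24. The rise of AT5G13200, 2.12, was close to the median of that list. The array annotation named 2 further loci with a GRAM domain, both also with a C2 domain. AT5G50170 rose by 0.73 (SE 0.14, adjusted p = 0.0151), and AT3G59660 gave -0.24 (SE 0.10, adjusted p = 0.203, and 0.0344 with the block). Several root markers also moved with ABA: CASP1 by -0.29, CASP2 by -1.02, and the root hair genes SHV2 by -0.78 and MRH6 by -1.27. That makes 4 of the 6 root and root hair markers lower (limma adjusted p from 0.000963 to 0.0122), where 5.01% of all features were called lower. None of the 4 leaf, 3 guard cell and 4 seed markers passed. The leaf markers RBCS1A, CAB1 and RCA and the root marker PYK10 lie near the top of the scale, where a change could hardly be seen. The part of the marked tissues in the ABA changes of the family was not tested. None of the 17 markers passed the test against wild type in either altered line, averaged over treatments. Hardly any feature did, 0.00269% of all in the overexpressor and 0% in gem1.

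The features most like the members were sought over the 12 arrays, after the mean of each replicate number was subtracted, among features that then spanned at least 1 on the log2 scale. For AT5G13200 these were SIP4 (Pearson r = 0.998), NAMT1 (0.998), HHP2 (0.996), AT5G59490 (0.995) and NTMC2T6.2 (0.994), out of 5514 candidates. All 5 were higher with ABA, by 1.49 to 3.03 except HHP2 at 1.09. SIP4 is a protein kinase also known as CIPK11, and NAMT1 is a methyltransferase. These arrays share the step between untreated and treated samples, which alone gives a high r.

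For GEM the likeness was looser. The features closest to GEM feature 1, out of 5513 candidates, were the transposable element gene SADHU3-2 (r = 0.85), AT3G44006 (0.73), AT1G29420 (0.72), AT1G49210 (0.72) and AT1G29500 (0.71). Those closest to feature 2 were 3 transposable element genes, AT5G35935 (0.81), AT5G37100 (0.72) and AT5G33395 (0.70), with the defensin PDF1.2b (0.75) and AT1G72060 (0.67). The 2 GEM features shared none of these 5 and correlated with each other at r = 0.18. Within the family AT5G08350 was most like AT5G23370 (r = 0.86) and AT5G23360 (r = 0.80), and the 2 features of AT4G01600 gave r = 0.83. FIP1 and AT5G13200 also gave r = 0.83, and AT5G13200 and AT5G23360 gave r = -0.80. These are descriptions over arrays that share treatments and genotypes.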

How the data were processed

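One-colour arrays of 12 RNA samples were analysed, 1 array per sample and 2 replicates in each of 6 groups, grouped by the sample titles. The deposited values are log2 expression per transcript feature. The submitters' processing notes name RMA, with no version. That method subtracts background, gives arrays 1 common distribution and merges probes, so shifts of total RNA are lost. The log2 scale was inferred from the values. The sources used here do not state the genome build, no background flags were used, and array number limits the precision. The series-wide table was identical (largest difference 0).

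All features entered 1 limma fit (limma 3.58.1, R 4.3.3, lmFit and eBayes) of the 6 group means on 12 arrays, with 6 residual degrees of freedom, two-sided tests and Benjamini-Hochberg adjustment over the 37118 features of each contrast. Intervals are 95% intervals on 7.65 moderated degrees of freedom. Deviations of same-numbered replicates correlated in all 15 pairs of groups (0.44 to 0.88), so the numbers were taken to pair the samples and the fit with the replicate number as a block is given where it changes a call. Other alternatives were a fit of only the groups compared, an intensity trend, array weights, the dimmest 30% left out, a shift to 1 median, quantile normalization again, 1 feature per locus, the whole-series table, and each array left out. For the lists of other genes the feature with the highest mean was used per locus. Every member feature was named at any value, with up to 4 members past the threshold per list and contrast, by size, and the 5 most alike features of each GEM feature and of each member past it; TTG1, GL2, CPC, AFH1 and AT3G59660 were added after their values were seen. The members and lists were chosen with earlier results of these data known. Names came from the array annotation and the TAIR10.1 gene table, which held all 8 loci. The planned comparison of protein and promoter sequences was not made. The fit was tested on simulated data whose noise was independent between arrays. That simulation lacked the correlation of same-numbered replicates, so it does not show how the fit without a block behaves under it. Plots were made in Python 3.11.15 (matplotlib 3.10.9).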

Additional observations from a re-analysis of the deposited data

How the results depend on the processing

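The count of family features past the threshold, and the values behind it, were recomputed under every alternative. For ABA averaged over genotypes the count was 1, and 2 with the replicate block, with the intensity trend and without the dimmest 30% of features, FIP1 being the addition in each (adjusted p = 0.0328, 0.015 and 0.0431). It ranged from 1 to 3 when arrays were left out, the 3 being reached with the block and without untreated overexpressor replicate 1, where AT5G08350 (-0.58) and AT5G23370 (-0.34) passed and FIP1 did not. AT5G23360 (-0.56, adjusted p = 0.0477) passed with the block and without ABA-treated gem1 replicate 1. AT5G13200 kept its averaged call in all 8 other settings and in all 24 fits without 1 array, with and without the block, with rises from 1.85 to 2.39. For ABA in each genotype the count of 0 became 1, AT5G13200, with the replicate block in wild type, gem1 and the overexpressor, and ranged from 0 to 1 without single arrays. Its wild-type rise was 1.34 to 2.94 in those fits.

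For the overexpressor against wild type, averaged, the count of 1 fell to 0 in the fit of only the arrays compared and after the shift of arrays to 1 median. GEM feature 1 then stood at 1.42 and 1.41 (limma adjusted p = 0.393 and 0.0646), and it ranged from 1.33 to 1.51 without single arrays, with counts from 0 to 1. Why the call was lost in the fit of only the arrays compared, and after the median shift, was not tested. Untreated, its count rose from 0 to 1 with the trend. Against gem1 it rose from 0 to 1 with the block, the trend, array weights and the dim features left out, and ranged from 0 to 1 without single arrays. Without single arrays the averaged ABA change took both signs for GEM feature 1 (-0.0434 to 0.0735), GEM feature 2 (-0.38 to 0.49), AT4G01600 features 1 (-0.19 to 0.0904) and 2 (-0.13 to 0.14) and AT5G23350 (-0.0514 to 0.15), none of them called. The differences of the AT5G13200 response from wild type did too, from -0.85 to 0.75 in gem1 and from -0.82 to 0.78 in the overexpressor. Of 130 tests of members only 2 were called, and neither of these values changed sign in any setting. Among values not called signs did change, the largest of them being 1.25 in size in the main fit. With 1 feature per locus, GEM feature 2 and AT4G01600 feature 2 gave no value, nor did AT5G23370 without the dim features.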

Other observations

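Both features of AT4G01600 were lower in replicate 2 than in replicate 1 in all 6 groups, replicate 2 minus 1 being -0.42 ± 0.32 and -0.45 ± 0.23 on the log2 scale (SD, n = 6 groups). A gap between replicate numbers was not particular to this locus. The first principal component, the axis along which the arrays differed most, held 43.2% of the variance and separated the 2 replicate numbers. The share of all features with such a gap in all groups was not computed. The replicate gap of GEM feature 2 ran from -2.60 to 0.46 over the groups, the negative end coming from the overexpressor with ABA.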
